A study of Mus musculus with 2 samples.

Results

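The genes of transforming growth factor beta (TGF-beta) and activin signalling were examined in mouse ureters at embryonic day E13.5. They were chosen by name: the 3 TGF-beta ligand genes Tgfb1, Tgfb2 and Tgfb3, their receptor genes Tgfbr1, Tgfbr2 and Tgfbr3, the activin subunit genes Inhba and Inhbb, the latency gene Ltbp1 and the TGF-beta-induced gene Tgfbi. All 10 genes were on the array, with 13 of its 39429 probes, and all 13 probes were among the 26471 kept after a filter on dim signal. Each gene was read from its brightest kept probe in a fit over 21097 genes.

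The study compared Tbx2-GOF ureters, of genotype Tbx18 cre/+;Hprt Tbx2/Y, with control ureters, of genotype Tbx18 +/+;Hprt Tbx2/Y. GOF stands for gain of function, and Tbx2 encodes a T-box transcription factor known mainly as a repressor. Hprt is X-linked, and both genotypes carried the Tbx2 allele there. The Tbx2-GOF embryos alone carried cre, in place of 1 Tbx18 allele, so the allele is addressed in cells that express Tbx18 or descend from such cells, and these embryos also differ from the controls at Tbx18. All embryos were male and of the outbred NMRI stock. RNA of dissected whole ureters was hybridised to 2 two-colour arrays with 1 extract of each genotype on each, with the dyes swapped between the arrays. Array 1 had the Tbx2-GOF extract in red (AlexaFluor647) and array 2 had it in green (AlexaFluor555). The labels do not say how many embryos made up an extract or whether the arrays hold separate embryos. Every p-value rests on how far the 2 arrays differ. In limma that spread is taken mostly over all genes (6.36 prior degrees of freedom) and less from the gene itself (1 residual). The spread may be technical only.

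TGF-beta ligands are secreted as latent complexes in which a propeptide is held in the matrix by latent TGF-beta binding proteins such as LTBP1. Once released, the ligand binds the receptor TGFBR2, which activates TGFBR1, and SMAD2 and SMAD3 carry the signal to the nucleus; activins use other receptors and the same SMADs. In organs with a muscular wall the pathway is known for its effects on matrix production and smooth muscle differentiation.

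Tgfb1 and Tgfb2 are paralogs with array probes that resemble each other in part, so both are shown to let the overlap between them be read. Capitals mark the bases that match when the 2 probes are aligned without gaps. The Tgfb1 probe lies at chr7:26489877-26489936 on the plus strand and the brighter Tgfb2 probe at chr1:188449333-188449392 on the minus strand (mm9).
Tgfb1: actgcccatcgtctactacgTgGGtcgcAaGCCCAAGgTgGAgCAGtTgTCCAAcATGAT
Tgfb2: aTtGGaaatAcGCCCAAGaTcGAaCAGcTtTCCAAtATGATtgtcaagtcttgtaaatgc
Of the 41 bases aligned, 28 matched (68.3%), and the longest shared run was 7 bases. Exon and UTR positions of the probes were not looked up here, since no genome was used.

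Marker lists were set beside the labelled tissue. All 10 ureteric mesenchyme markers and all 10 urothelium markers were measured, as were 7 of 8 smooth muscle markers. Myocd, the regulator of smooth muscle genes, was not above background. All markers of the nephron, neural, skeletal muscle, liver, erythroid and adrenal cortex lists were measured too. Being measured therefore does not tell ureter from other tissue. Tbx2 itself had a log2 ratio of Tbx2-GOF over control of 0.035 on array 1 and 0.56 on array 2 (limma adjusted p = 0.711), and whether its probe lies in the sequence carried by the Hprt allele was not settled, so it checks nothing about the labels. Tbx18 was at -0.31 and -0.59 (adjusted p = 0.266). Over all genes 135 of 21097 had an adjusted p under 0.05 with limma, which is 0.640%, with 76 higher (0.360%) and 59 lower (0.280%) in Tbx2-GOF. Of 8 skeletal muscle markers 3 fell (list median -1.47), and in the liver and plasma protein list 4 of 6 fell (median -1.48). In the neural and Schwann list 2 of 8 rose (median 1.01), and in the nephron list 2 of 8 rose (median 0.69). Besides these, 1 of 6 adrenal cortex markers rose, Akr1b7, with a list median of -0.047. In the urothelium list 1 of 10 fell, Upk3a, while 3 were lower and 3 higher on both arrays (list median 0.0415). In the gonad list 1 of 4 measured markers fell, Lhx9 (list median -0.12). Lhx9, and Ahsg and Ttr among the 4 liver genes that fell, were well above background in Tbx2-GOF on 1 array alone. These genes thus passed the filter on dim signal through the control extracts, where they were high, so the size of their ratios is uncertain. In whole ureters, fewer cells of a type and less RNA per cell cannot be told apart.

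None of the 10 genes passed the test, against the background of 0.640% of all genes, and their mean log2 ratios lay between -0.38 and 0.37. The lowest adjusted p among them was 0.390. At an unadjusted p under 0.05 there were 4 of 10 (Tgfb1, Tgfb3, Tgfbi and Inhbb), where 9.34% of all genes were. That count ran from 2 to 5 over the alternative settings described below. Tgfb1 was higher in Tbx2-GOF on both arrays. The genes Tgfb2, Tgfb3, Tgfbi, Inhba, Inhbb and Ltbp1 were lower on both arrays, 6 of 10, where 25.1% of all genes were lower on both. Together 7 of 10 had 1 sign on both arrays, where 51.2% of all genes did, and the 3 receptor genes pointed opposite ways on the 2 arrays. The median over the 10 genes was -0.16, against -0.0005 over all genes tested.

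**Figure D1:**
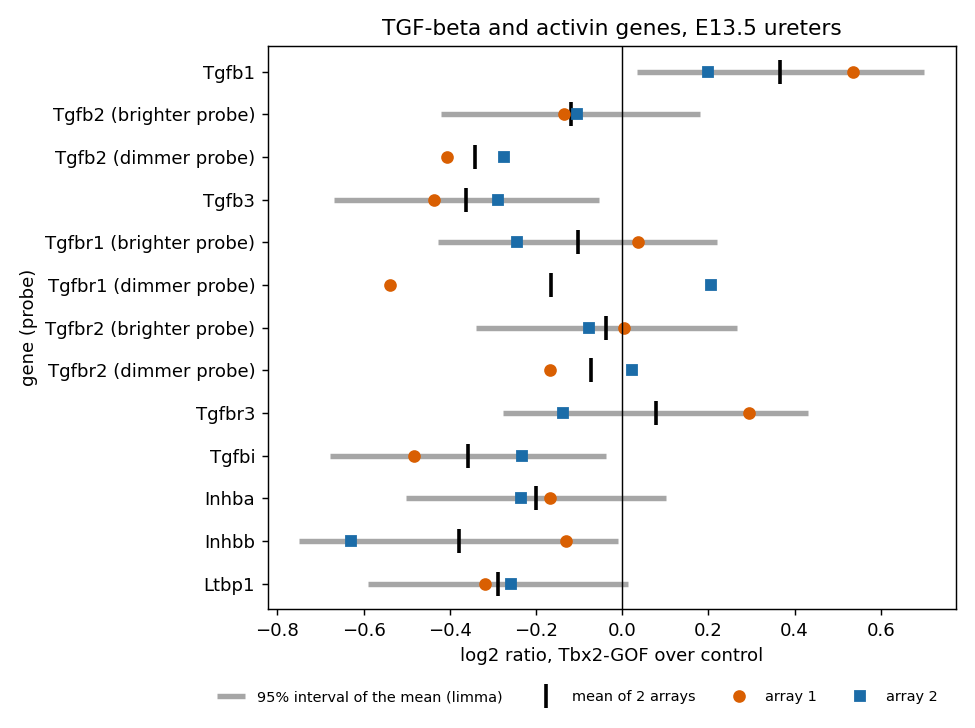
Log2 ratio of Tbx2-GOF over control (x axis) for each of the 13 probes (rows), with array 1 as circles, array 2 as squares, the mean as a vertical bar and limma's 95% interval in grey for the probe used in the fit. Tgfb1 lies right of 0 on both arrays, the ligand genes Tgfb2 and Tgfb3 left of 0 on both, and the receptor genes on either side.

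Tgfb1, the ligand also abundant in blood, vessel and immune cells, had normalised intensities of 2170 and 2360 in Tbx2-GOF extracts on arrays 1 and 2, against 1490 and 2050 in control extracts. Both Tbx2-GOF values lay above both control values. The log2 ratio was 0.54 on array 1 and 0.20 on array 2, with a mean of 0.37 ± 0.24 (SD, n = 2 arrays), or 1.29-fold. It did not pass the test (adjusted p = 0.452), and the 95% interval of the mean, not corrected for the number of genes, ran from 0.034 to 0.70. Of all genes, 95.1% had a lower ratio.

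The Tgfb1 probe was spotted 10 times on each array, so the measurement error within an array can be read directly. Its spots spanned log2 ratios of 0.45 to 0.65 on array 1 (SD 0.064) and 0.065 to 0.28 on array 2 (SD 0.068). The spots of the 2 arrays did not overlap, and all 10 on each array were above 0. The means of the arrays differed by 0.34; the spots carry error within an array only.

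Tgfb3, a ligand gene of mesenchyme and developing smooth muscle, had intensities of 10400 and 11600 in Tbx2-GOF extracts, against 14000 and 14200 in control extracts. Both Tbx2-GOF values lay below both control values. The log2 ratio was -0.44 on array 1 and -0.29 on array 2, a mean of -0.36 ± 0.11 (SD, n = 2), or 1.28-fold lower. It did not pass the test (adjusted p = 0.390, 95% interval -0.67 to -0.055), and 3.33% of genes had a lower ratio. This probe too had 10 spots on each array, which spanned -0.51 to -0.33 on array 1 and -0.39 to -0.23 on array 2. All 10 spots on each array were below 0, with an SD of 0.059 on array 1 and 0.057 on array 2, and here the spots of the arrays overlapped.

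**Figure D2:**
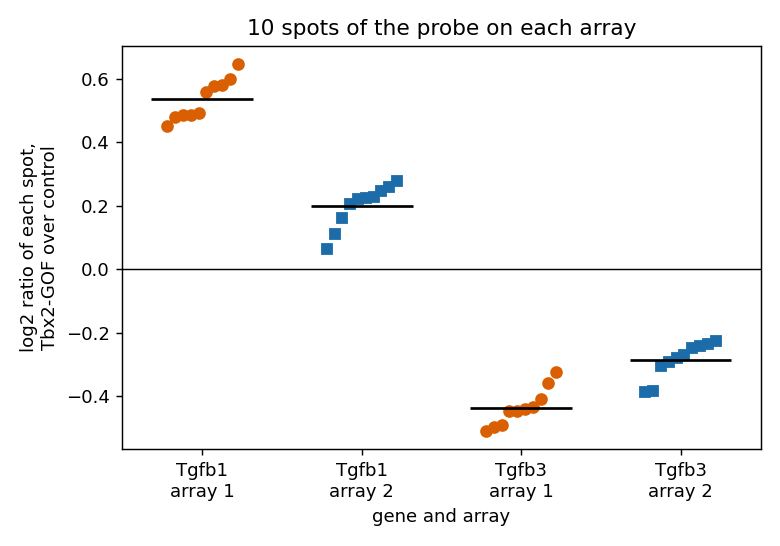
Log2 ratio of Tbx2-GOF over control (y axis) of each of the 10 spots of the Tgfb1 and Tgfb3 probes on arrays 1 (circles) and 2 (squares), sorted within each column, with the mean as a line. Every Tgfb1 spot lies above 0 and every Tgfb3 spot below it, and the Tgfb1 spots of array 1, from 0.45 to 0.65, lie above those of array 2.

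Tgfb2, whose loss in mice disturbs heart, skeleton and urogenital organs, was measured by 2 probes. The brighter one had intensities of 18100 and 18500 in Tbx2-GOF extracts, against 19800 and 19900 in control extracts, a mean log2 ratio of -0.12 ± 0.02 (SD, n = 2; adjusted p = 0.979). The dimmer one, at chr1:188447534-188447593, had 6520 and 6540 in Tbx2-GOF extracts, against 8640 and 7910 in control extracts, and a mean of -0.34 ± 0.09. In a limma fit over all kept probes its unadjusted p was 0.039 and its adjusted p 0.519. Both probes were lower in Tbx2-GOF on both arrays with no overlap of the groups, and they differed in size. With the mean of the probes Tgfb2 was at -0.23 (adjusted p = 0.739), over 1.5 times the value from the brighter probe. For that brighter probe the 95% interval ran from -0.42 to 0.18, so a level more than 1.34-fold lower lay outside it.

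Inhba encodes the activin A subunit, a ligand of mesenchyme in several branching organs. Its probe, at chr13:16118634-16118693 on the plus strand (mm9), is shown because the reading of this subunit rests on it alone.
Inhba: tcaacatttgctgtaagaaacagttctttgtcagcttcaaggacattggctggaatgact
Its intensities were 1620 and 1700 in Tbx2-GOF extracts, against 1820 and 2000 in control extracts. The Tbx2-GOF values lay below the control values on both arrays without overlap, at log2 ratios of -0.17 and -0.23. The mean was -0.20 ± 0.05 (SD, n = 2) and missed the threshold (adjusted p = 0.826).

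Inhbb encodes the activin B subunit. Its intensities were 172 and 209 in Tbx2-GOF extracts, against 188 and 324 in control extracts, well above background in both channels of both arrays. The groups overlapped, since the control of array 1 was dimmer than the Tbx2-GOF extract of array 2. The log2 ratio was -0.13 on array 1 and -0.63 on array 2, a mean of -0.38 ± 0.35 (SD, n = 2; adjusted p = 0.509), so the value rests mainly on array 2. With the scanner software's processed signals it was -0.65 (adjusted p = 0.409).

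Ltbp1, the matrix protein gene that anchors latent TGF-beta, had intensities of 10500 and 11400 in Tbx2-GOF extracts, against 13000 and 13600 in control extracts. The groups did not overlap, and the arrays lay close together at -0.32 and -0.26. The mean log2 ratio was -0.29 ± 0.04 (SD, n = 2), or 1.22-fold lower, and missed the threshold (adjusted p = 0.576, 95% interval -0.59 to 0.014).

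Of the receptors, Tgfbr2, the receptor that binds the ligand first, had intensities of 7540 and 7970 in Tbx2-GOF extracts, against 7520 and 8410 in control extracts. The groups overlapped, and the log2 ratios were 0.0037 and -0.077. The 95% interval of the mean, -0.34 to 0.27, spans levels from 1.26-fold lower to 1.2-fold higher. A dimmer Tgfbr2 probe gave -0.17 and 0.022, likewise on either side of 0.

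Tgfbr1, the kinase that TGFBR2 activates, had intensities of 15600 and 14800 in Tbx2-GOF extracts, against 15200 and 17500 in control extracts. Its log2 ratio was 0.037 on array 1 and -0.24 on array 2, and its groups overlapped (adjusted p = 0.9998). A dimmer Tgfbr1 probe, with 444 and 506 in Tbx2-GOF extracts and 645 and 439 in control extracts, ran the other way on each array, at -0.54 and 0.21.

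Tgfbr3, betaglycan, the co-receptor that presents TGF-beta2 and helps inhibin hold activin back, had 3430 and 3280 in Tbx2-GOF extracts, against 2800 and 3610 in control extracts. The groups overlapped and the arrays pointed opposite ways, at 0.29 and -0.14 (adjusted p = 0.9998).

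Tgfbi, a secreted matrix protein gene first found by its induction with TGF-beta, had intensities of 47400 and 45600 in Tbx2-GOF extracts, against 66200 and 53600 in control extracts. Both Tbx2-GOF values lay below both control values. The log2 ratio was -0.48 on array 1 and -0.23 on array 2, a mean of -0.36 ± 0.18 (SD, n = 2), or 1.28-fold lower. It did not pass the test (adjusted p = 0.435, 95% interval -0.68 to -0.038).

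Across the 10 genes the Tbx2-GOF and control intensities of the brightest probe did not overlap for 6, Tgfb1, Tgfb2, Tgfb3, Tgfbi, Inhba and Ltbp1, where the groups did not overlap for 33.6% of all genes. At least 1.5-fold in the same direction on both arrays were 1.37% of all genes, and none of these 10. No spot of the 13 probes was saturated.

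**Figure D3:**
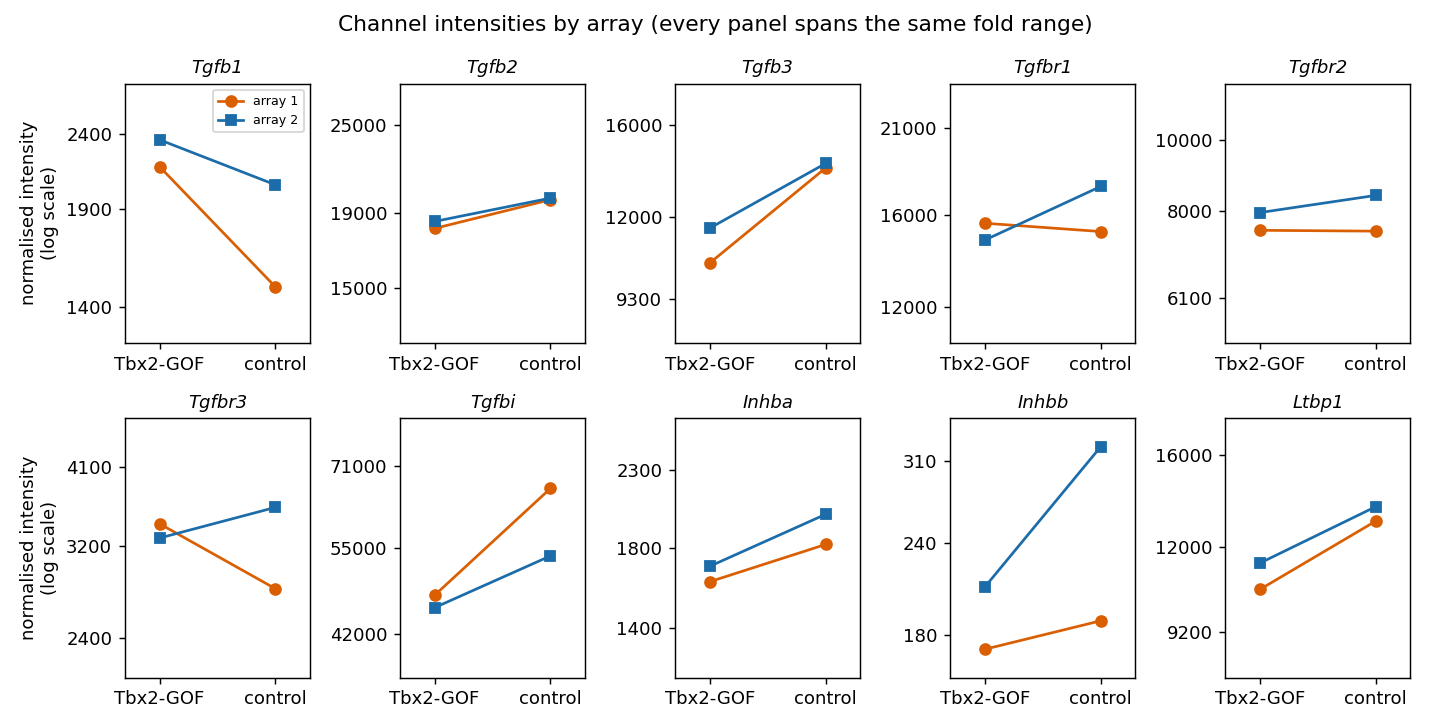
Normalised intensity (y axis, log scale) of the brightest probe of each of the 10 genes in Tbx2-GOF (left) and control (right) extracts, joined within array 1 (circles) and array 2 (squares). Every panel spans the same fold range, so slopes can be compared, and the lines of Tgfbr1 and Tgfbr3 cross.

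Markers of endothelium, macrophages and platelets, cells known to contain Tgfb1 RNA, were set beside it. Of 8 endothelial markers 7 were measured, Erg being not above background, and 6 were higher on both arrays, where 26.1% of all genes were, with a list median of 0.34 on array 1 and 0.13 on array 2; 0 passed the test. The summed endothelial intensity was 42400 and 45200 in Tbx2-GOF extracts, against 33000 and 39300 in control extracts. All 8 macrophage and leukocyte markers were measured, with 4 higher on both arrays, 0 past the test, medians of 0.34 and -0.046, and sums of 32800 and 40700 in Tbx2-GOF extracts against 25300 and 43800 in control extracts. All 4 platelet markers were measured, with 2 higher on both arrays, 0 past the test, medians of 0.37 and 0.019, and sums of 8350 and 10700 in Tbx2-GOF extracts against 6320 and 10700 in control extracts. The erythroid list, also of blood, went the other way. All 6 erythroid markers were measured, with 0 higher and 4 lower on both arrays, where 25.1% of all genes were lower. None passed the test, and the medians were -0.32 and -0.51. The erythroid sums were 633000 and 545000 in Tbx2-GOF extracts against 607000 and 776000 in control extracts. All measured markers had passed the filter on dim signal, and their part in the Tgfb1 ratio was not tested.

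The rest of the pathway was counted over 6 lists. Of 88 genes 84 were measured, and 2 passed the test: Mstn and Postn, both lower. At an unadjusted p under 0.05 there were 11 of 84, against 9.34% of all genes. On both arrays 26 of the 84 genes were lower, against 25.1% of all genes, and 15 higher, against 26.1%, while 43 pointed opposite ways, and the median was -0.031.

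**Figure D4:**
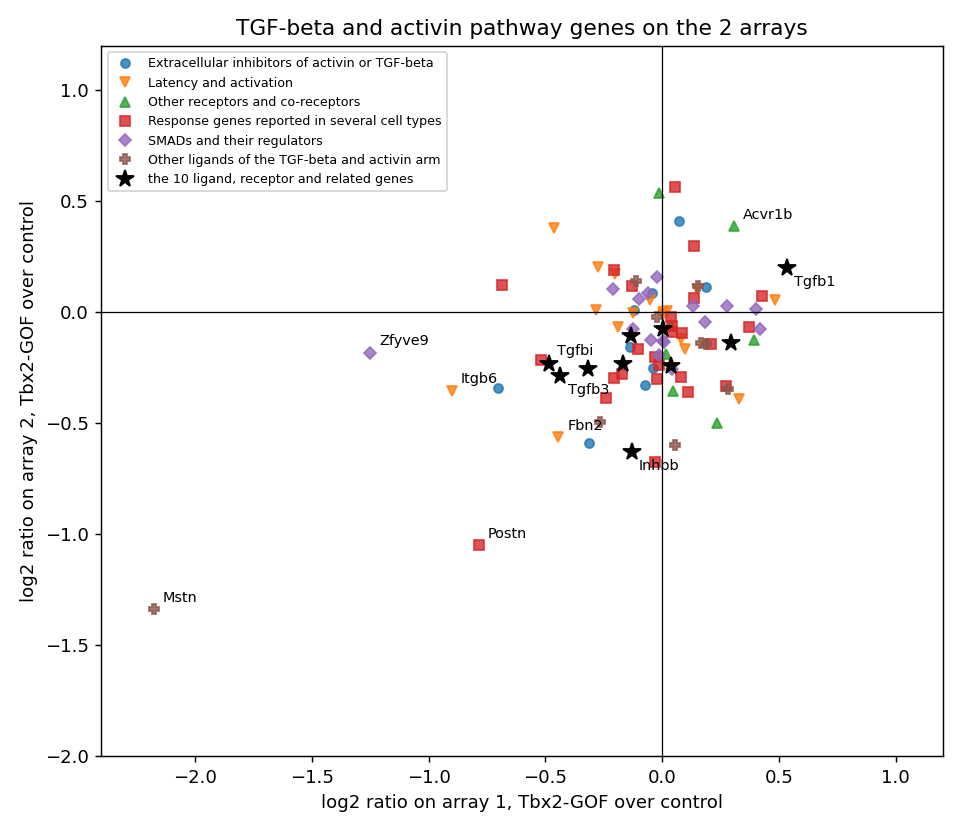
Log2 ratio of Tbx2-GOF over control on array 1 (x axis) and array 2 (y axis) for the 84 measured pathway genes, with a symbol for each list, and for the 10 ligand, receptor and related genes as stars. Most genes lie near 0, while Mstn and Postn lie far down on both arrays.

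Among 9 other ligand genes of this arm, 1 fell and 8 missed the threshold. Mstn, myostatin, which holds skeletal muscle growth back through activin receptors, fell, with intensities of 105 and 181 in Tbx2-GOF extracts, against 472 and 457 in control extracts. Its log2 ratio was -2.18 on array 1 and -1.34 on array 2, a mean of -1.76 ± 0.59 (SD, n = 2; adjusted p = 0.0267), and in Tbx2-GOF it was well above background on array 2 alone. It thus passed the filter on dim signal through the control extracts, where it was high, so the size of its ratio is uncertain. It was not among the genes past the test in 5 of 12 alternative settings. In 1 of these, the strict filter, it was left out before the test. The skeletal muscle markers, 8 of 8 measured, were all lower on both arrays and 3 fell (Myh8, Acta1 and Chrna1), with medians of -1.99 and -0.91. Their summed intensity was 6080 and 18100 in Tbx2-GOF extracts, against 27700 and 34000 in control extracts, and their part in the Mstn result was not tested. Lefty1, an inhibitor of nodal signalling, was at -0.38, Gdf1, a nodal partner, at 0.14 (0.036 from its other probe, with opposite signs on the arrays) and Gdf11 at -0.021, with adjusted p from 0.372 to 0.9998. Inhbc was not above background.

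Of 7 other receptor genes measured, 0 passed. Acvr1b, the activin counterpart of TGFBR1, was the 1 gene of this list with the same sign on both arrays. It had 6670 and 6170 in Tbx2-GOF extracts, against 5400 and 4710 in control extracts, and a log2 ratio of 0.35 ± 0.06 (SD, n = 2; adjusted p = 0.412). Its other probe was at 0.53, also higher on both arrays. Acvr1c and Bambi were not above background.

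Of 17 genes for latency and activation 0 passed, and the list median was -0.031. Itgb6, the epithelial integrin subunit that releases latent TGF-beta, had 140 and 164 in Tbx2-GOF extracts, against 261 and 210 in control extracts, at log2 ratios of -0.90 and -0.35 (adjusted p = 0.189). Fbn2, fibrillin 2, to which LTBPs attach, had 21400 and 22100 in Tbx2-GOF extracts, against 29100 and 32600 in control extracts. Its mean was -0.50 ± 0.08 (adjusted p = 0.187), with -0.44 from its other probe. Nrros, which tethers latent TGF-beta1 on macrophages and microglia, was at 0.48 and 0.055 (adjusted p = 0.739). The other LTBP genes, Ltbp2, Ltbp3 and Ltbp4, were at -0.0030, 0.0015 and -0.064.

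Of 9 measured extracellular inhibitors 0 passed, and the list median was -0.14. On both arrays 5 were lower, against 25.1% of all genes, and 2 higher, against 26.1%, while 2 pointed opposite ways. Aspn, a small proteoglycan that binds TGF-beta1, was at -0.70 and -0.34 (adjusted p = 0.214). Wfikkn2, an antagonist of myostatin, was at -0.31 and -0.59 (adjusted p = 0.266), with -0.52 from its other probe. Bgn, biglycan, was at 0.070 and 0.41 (adjusted p = 0.779), and Fst, follistatin, which traps activins, at -0.14 and -0.16 (adjusted p = 0.937). Cer1 was not above background.

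Of 16 SMADs and regulators 0 passed. Smad2, Smad3 and Smad4 were at -0.10, 0.014 and 0.068. Zfyve9, the SMAD anchor SARA, was at -1.25 on array 1 and -0.18 on array 2 (adjusted p = 0.315), so its mean of -0.72 rests on array 1. The feedback genes Smad7, an inhibitory SMAD, and Pmepa1, which sequesters SMADs, were at 0.21 ± 0.27 and 0.15 ± 0.18 (SD, n = 2; adjusted p = 0.870 and 0.941). A second Pmepa1 probe pointed opposite ways on the arrays, at 0.40 and -0.16.

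Of 26 response genes 1 fell, 0 rose and 25 did not pass. On both arrays 10 were lower, against 25.1% of all genes, and 4 higher, against 26.1%, while 12 pointed opposite ways. The list median was -0.067. Postn, periostin, a matricellular protein of the same fasciclin family as Tgfbi, fell. Its intensities were 13100 and 16400 in Tbx2-GOF extracts, against 22700 and 34000 in control extracts, a mean log2 ratio of -0.92 ± 0.19 (SD, n = 2; adjusted p = 0.0449), and it did not pass the test in 6 of 12 alternative settings. The matrix genes Timp3, Lox and the smooth muscle gene Cnn1 were at -0.37, -0.31 and -0.35 (adjusted p from 0.435 to 0.655). Cnn1 was at -0.031 on array 1 and -0.67 on array 2, so its mean rests on array 2. Of the other smooth muscle genes in this list, Tagln was at 0.43 and 0.071 and Acta2 at 0.043 and -0.088. A second Lox probe pointed opposite ways on the arrays, at 0.081 and -0.58. Ccn2, a widely used readout of TGF-beta signalling, was at -0.22 ± 0.07 (SD, n = 2), and the collagen genes Col1a1, Col1a2 and Col3a1 at -0.029, -0.0050 and -0.10.

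Promoters of 8 of the 10 genes matched RefSeq (GRCm38.p6), as 10 windows from 250 bases before to 50 after a start site; Tgfb3 and Tgfbr3 were not matched. They were searched on both strands for the T-box core AGGTGT, its longer form AGGTGTGA and the SMAD motif CAGAC. The core occurred in 2 of the 10 windows, those of Tgfbi and Tgfbr2, and in 13.7% of all 32851 promoters. The longer form, which contains the core, occurred in 0 of the 10 and in 1.28% of all promoters, and the SMAD motif in 6 of the 10 and in 49.6% of all. The windows of Tgfbi and Tgfbr2 each hold both the core and the SMAD motif. Tgfbr2 had log2 ratios of 0.0037 on array 1 and -0.077 on array 2. The 250 bases before the Tgfbi start are shown because, of these 2 genes, Tgfbi was the one lower on both arrays. It is at chr13:56609336-56609585 on the plus strand, and capitals mark the T-box core, on the opposite strand 203 bases before the start, and the SMAD motif, also on the opposite strand, 239 and 85 bases before it.
Tgfbi: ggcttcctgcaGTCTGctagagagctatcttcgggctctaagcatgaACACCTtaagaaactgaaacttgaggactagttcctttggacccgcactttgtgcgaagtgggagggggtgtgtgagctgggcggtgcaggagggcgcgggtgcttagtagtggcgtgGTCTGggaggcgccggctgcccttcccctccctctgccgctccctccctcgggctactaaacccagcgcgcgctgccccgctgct
A match is a description of the letters and shows neither binding nor a cause.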

How the data were processed

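Scanner output came from Agilent Feature Extraction, version 10.7.3.1 in the submitters' processing notes. Per the file headers, each spot's mean signal and its local background median are raw intensity, and a second pair of intensity columns was corrected by the software for background, spatial trend and dye. Per the file headers, the scanner also gives log10 ratios, red over green. In the deposited value table of the series, each number is a linear fold with a sign, whose scale, centring and direction were worked out from the values. The slide and the scan session were shared by both arrays, so no slide or scan batch could be tested, and array and dye orientation cannot be told apart.

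Here, limma 3.58.1 in R 4.3.3 was used: normexp background correction (offset 50), loess within each array (span 0.3; control and outlier spots at weight 0), no scaling between arrays, ratios turned by the labelled dyes, and repeat spots averaged. Probes were kept where Tbx2-GOF or control was well above background on both arrays. The 21097 genes, each by its brightest kept probe, were tested with lmFit and eBayes (two-sided; degrees of freedom 1 residual and 6.36 prior) and adjusted after Benjamini and Hochberg; "rose" and "fell" mean an adjusted p under 0.05. Normalised intensities are the 2 channels after loess, and levels of different probes are not compared. The fit was tested on simulated data. Symbols were updated through RefSeq accessions for 67% of probes. The genes and lists were chosen with earlier results of these data known. From each pathway list, genes past the test and the 3 largest ratios of 1 sign on both arrays are named. Fst, the other LTBPs, the SMADs, Ccn2, Tagln, Acta2 and collagens were added after their values were seen. The number of arrays, 2, limits the precision.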

Additional observations from a re-analysis of the deposited data

How the results depend on the processing

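Over 12 alternative settings, each of the 10 genes kept the sign of its mean log2 ratio in all 120 values, and 0 of the 120 passed the test (lowest adjusted p 0.286, for Tgfb3). Many of these signs could not change. No filter, the strict filter, all kept probes, limma's trend and robust options and the separate-channel model reuse the main mean ratio of the brightest probe. For genes with 1 probe, the mean of a gene's probes repeats it too. Inhbb ranged from -0.65 to -0.35 and Tgfb2 from -0.23 to -0.12, while Tgfb1 stayed between 0.36 and 0.39. At an unadjusted p under 0.05 there were 2 of the 10 genes with median centring and with the separate-channel model. Of all genes 5.78% and 8.95% were. There were 5 of the 10 without the filter, with limma's trend and robust options and with all kept probes. Of all genes or probes tested 7.79%, 9.15% and 8.51% were. With 1 array left out there is no test, and the values are those of the other array, given above. The number of genes past the test was 0, with 0 higher and 0 lower, with median centring, the series value table and processed signals (1219, 2060 and 2055 at an unadjusted p under 0.05), and 4 (2 higher and 2 lower) with a separate-channel model. It was 335 (212 and 123) with scaling between arrays, 276 (167 and 109) without the filter on dim probes and 211 (124 higher) with the mean of a gene's probes. Of the 84 pathway genes 0 passed with median centring, processed signals, the separate-channel model and the series value table. With offset 0 and with all kept probes as separate entries 1 passed, Mstn, and with the strict filter, which left Mstn out, 1 passed, Postn. The cause was not tested. Each ratio already pairs the genotypes within an array, so no further replicate block was fitted. All 13 probes were well above background in both channels of both arrays.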

Other observations

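Probes with 10 spots on each array show how far the 2 arrays differed beyond the spread between spots. Over 316 such probes that passed the filter, the median SD between spots was 0.060 on array 1 and 0.058 on array 2 on the log2 scale, while the median gap between the mean ratios of the 2 arrays was 0.16. Tgfb1, with a gap of 0.34, was above 76.9% of these probes, and Tgfb3, with a gap of 0.15, above 46.2%.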
